A study of Homo sapiens with 6 samples.

Results

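The lysosomal genes described here are hydrolases, membrane proteins, sorting receptors and their regulators, taken from a list of 40 symbols by the platform's gene names. Of these, 38 had a named row on the array, among 14779 named genes in all, and each was represented by 1 row. GNPTAB and PPT2 had no named row and were not analysed here. RNA came from BE(2)-C, a human neuroblastoma line long kept in culture, and was read on 6 single-colour Affymetrix whole-transcript arrays, 1 per sample. The control group was 3 samples treated with the vehicle DMSO, and the treated group was 3 samples treated with 10 µM NCT-503, both for 2 days in the same serum-containing medium. NCT-503 blocks PHGDH, the first enzyme of serine synthesis. All groups are 1 cell line, and the labels do not say whether the replicates were grown as separate cultures, so a p-value reflects no more than the spread among the samples, which may be technical.

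The lysosome is an acidic compartment in which proteins, glycans and lipids are broken down by hydrolases. Most soluble hydrolases are tagged with mannose 6-phosphate in the Golgi and carried by mannose 6-phosphate receptors to endosomes, and the membrane is lined with heavily glycosylated LAMP proteins. Many of these genes are driven by the MiT-TFE transcription factors TFEB, TFE3 and MITF, which enter the nucleus when mTORC1 at the lysosomal surface is less active and bind E-box sites of the CLEAR type. The comparison asked how the transcripts of this compartment differ after NCT-503.

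More of the listed lysosomal genes rose than fell with NCT-503. The list was chosen with earlier results of these data known, so its counts are descriptions only. Of the 38 measured genes, 19 rose, 2 fell and 17 were not called at an adjusted p under 0.05. Over all genes tested, 33.5% were called, 16.4% higher and 17.1% lower. These shares depend on level, and 29 of the 38 genes lie above the 50th percentile of mean level. When only the 50% of genes above it were tested, 2153 were called higher and 2377 lower, both larger shares of the genes tested. Of the 29, 20 were called higher there and 1 lower. The macrophage and late-endosome glycoprotein CD68 rose most, 4.76-fold, followed by the sialidase NEU1 (1.84-fold) and the cysteine protease CTSB (1.70-fold). The cysteine proteases CTSK and CTSV fell, each to 0.470 of its DMSO level, with CTSK low in level (percentile 34.2 of all genes tested). Changes below are on the log2 scale, treated minus control, beside the standard error (SE) of the limma fit. Adjusted p-values were computed by the Benjamini-Hochberg method over all genes tested. In bulk RNA, a change in the share of cells and a change in RNA per cell cannot be told apart.

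The median change of the 38 genes was 0.30 on the log2 scale, beside 0.06 over all genes tested. Changes were above 0 in 29 and below 0 in 9. With an added limit of 0.5 on the log2 change, 10 genes rose (7.28% of all genes tested) and 2 fell (11.0% of all). All 3 NCT-503 arrays lay above all 3 DMSO arrays in 23 genes (25.4% of all genes) and below them in 5 (22.4%), and the groups overlapped in the other 10. Over all genes, the groups did not overlap in 47.9%. The mean log2 level of the 38 genes was 6.43 to 6.50 on the DMSO arrays and 6.68 to 6.80 on the NCT-503 arrays. With arrays centred on their 75th percentile, the members called were 23 higher and 2 lower, while higher calls over all genes went from 48.8% to 60.4% of calls.

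**Figure D1:**
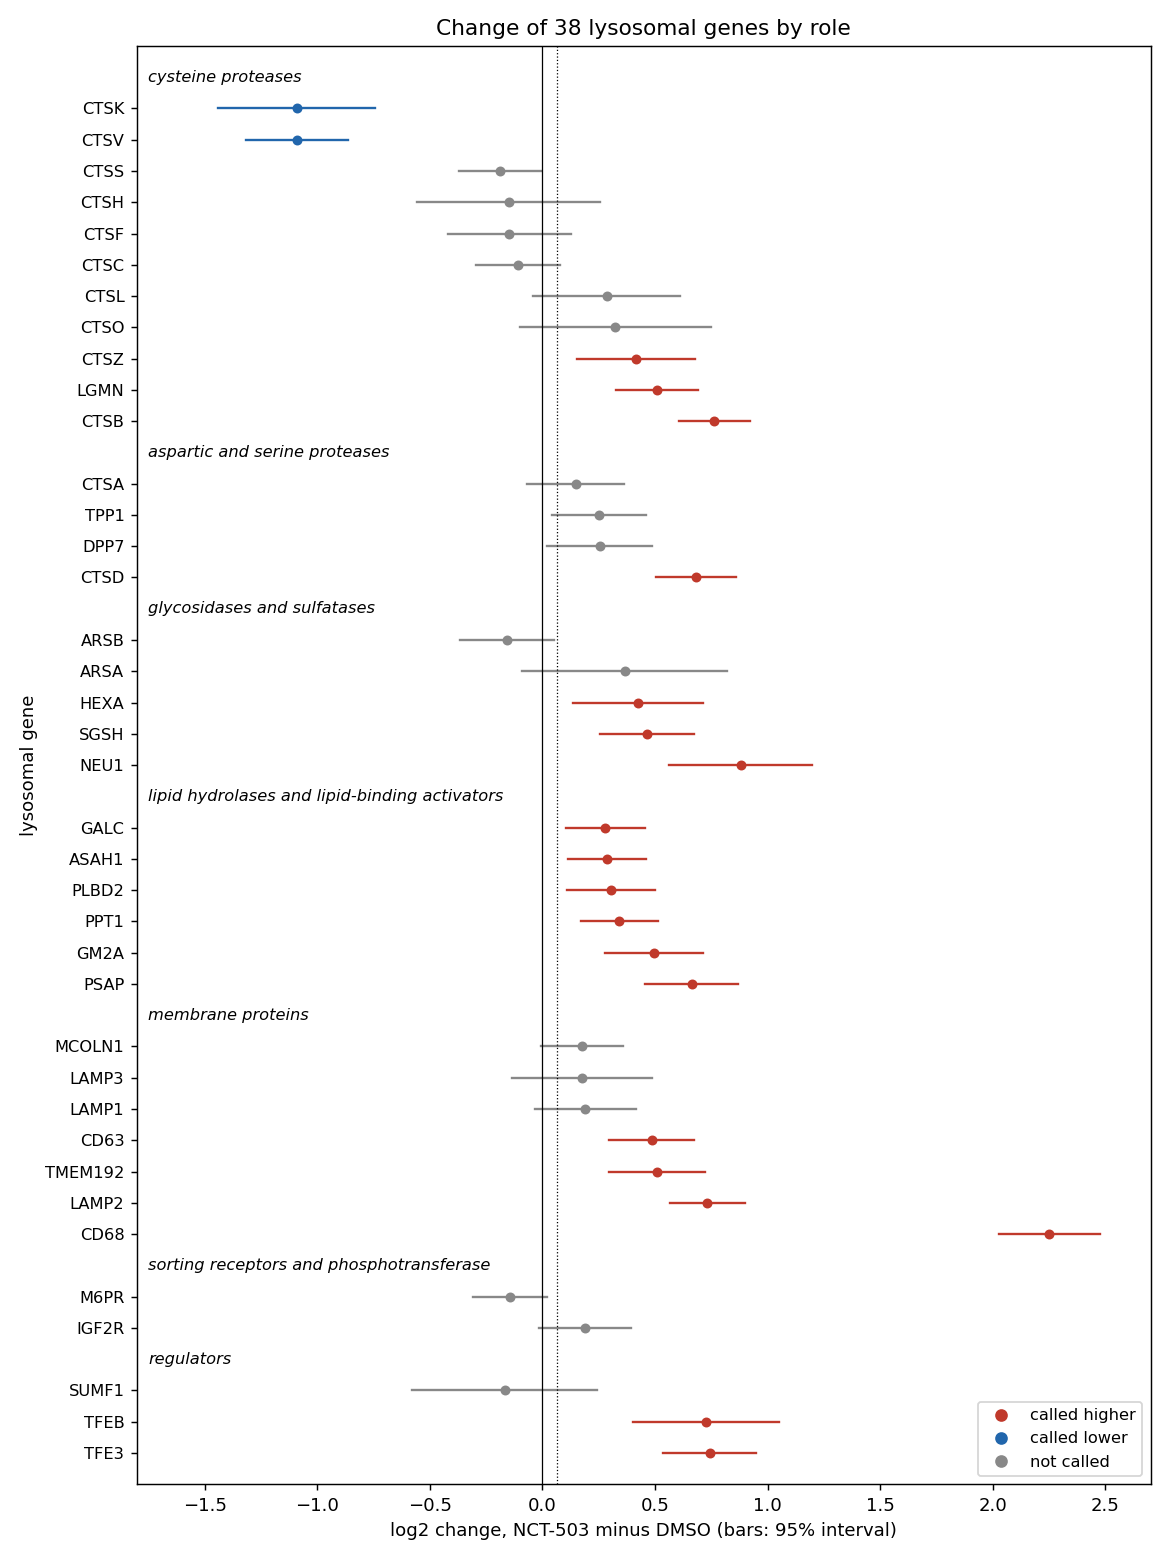
Log2 change of each of the 38 lysosomal genes, NCT-503 minus DMSO (x axis), with its 95% interval from limma, grouped by role (y axis). Colours give the call, and the dotted line is the median of all genes tested at 0.06. CD68 stands at 2.25, CTSK and CTSV at -1.09, and all 6 lipid-handling genes lie above 0.

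TFEB and TFE3, the transcription factors of lysosomal genes on the list, both rose. TFEB measured 3.94, 4.12 and 3.81 on the DMSO arrays and 4.92, 4.68 and 4.45 on the NCT-503 arrays, on the deposited log2 scale. TFE3 measured 6.05, 6.15 and 6.19 with DMSO and 6.99, 6.81 and 6.80 with NCT-503. Neither gene's groups overlapped, and the spread of TFEB within groups was the wider. TFEB was the lower in mean level, at percentile 37.9 of all genes tested against 72.3 for TFE3. Its signal could not be set against background. TFEB rose by 0.73 ± 0.14 (SE, adjusted p = 0.00617) and TFE3 by 0.74 ± 0.09 (adjusted p = 0.000781), both 1.65- to 1.67-fold. The third regulator on the list, SUMF1, activates sulfatases by making their catalytic formylglycine. It went from 4.32 ± 0.05 to 4.15 ± 0.37 (mean ± SD, n = 3 each) and was not called (change -0.17, 95% interval -0.58 to 0.24).

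The MiT-TFE family has 2 further members outside the list, MITF and TFEC. MITF, the melanocyte and osteoclast factor of the family, measured 4.81, 4.84 and 4.92 with DMSO and 6.51, 6.57 and 6.55 with NCT-503. It rose 3.22-fold (1.69 ± 0.07, adjusted p = 1.64e-05), which is a larger change than that of any lysosomal gene here except CD68. TFEC, at 2.00 ± 0.08 and 2.08 ± 0.15, was not called. In all, 7 of 23 measured genes of lysosomal nutrient sensing and MiT-TFE control rose (30.4%) and 4 fell (17.4%), beside 16.4% and 17.1% of all genes tested, with a median change of 0.13.

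Among those 23, RRAGD rose by 0.75 ± 0.09 (adjusted p = 0.000723). RRAGD is a Rag GTPase that recruits mTORC1 to the lysosome and is itself a MiT-TFE target. ZKSCAN3, a zinc finger protein described as a repressor of autophagy and lysosome genes, fell by 0.95 ± 0.15, and DEPDC5, a subunit of the GATOR1 complex that restrains mTORC1, fell by 0.86 ± 0.10. RRAGC rose from 5.60 ± 0.26 to 6.14 ± 0.12 and FNIP2, a folliculin partner, from 7.02 ± 0.20 to 7.48 ± 0.10, and both are shown in the plot of control genes. Not in that plot, RRAGB, another Rag GTPase, fell by 0.75 ± 0.16 (adjusted p = 0.0101) and SESN3 by 0.73 ± 0.09. The remaining called genes of this list rose, SESN2 by 0.67 ± 0.09, LAMTOR5 by 0.53 ± 0.10 and NPRL3 by 0.42 ± 0.08. RRAGA (change 0.19) and MTOR itself (change -0.08) were not called.

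**Figure D2:**
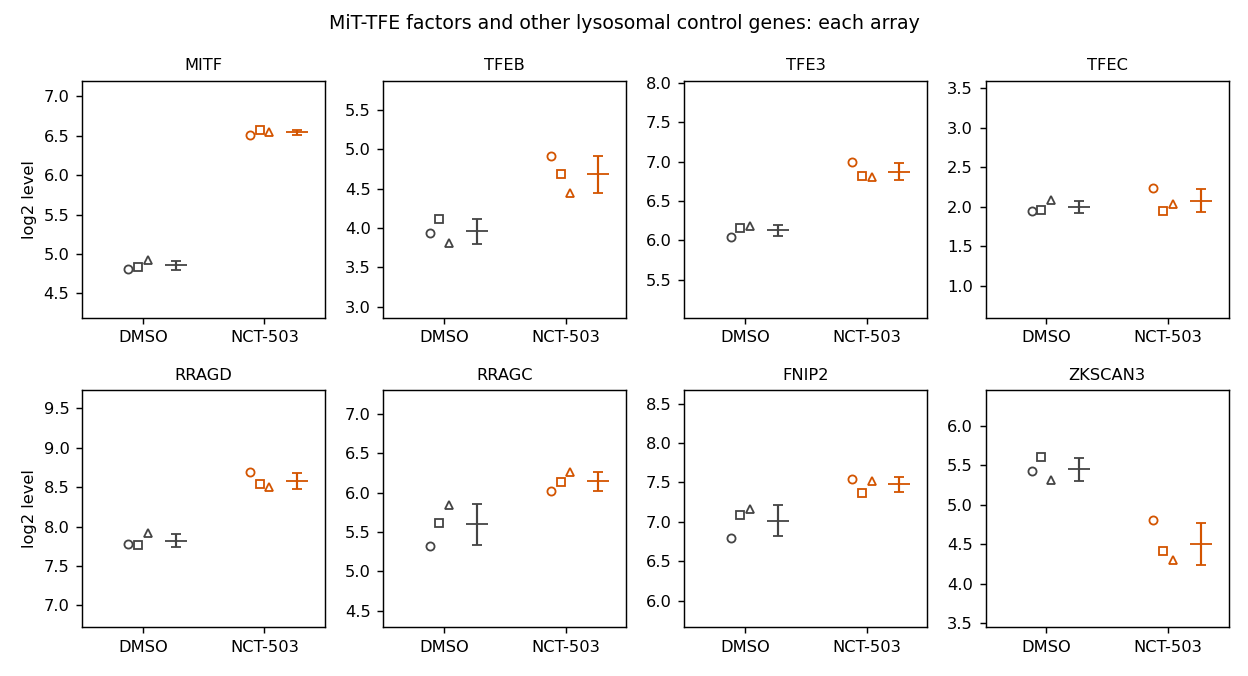
Log2 level (y axis, each panel spanning 3 log2 units) on each array for the 4 MiT-TFE factors and 4 other control genes with DMSO and NCT-503. Circles, squares and triangles are the samples labelled a, b and c, and bars are mean ± SD (n = 3). MITF, TFEB and TFE3 lie higher with NCT-503, TFEC overlaps, and ZKSCAN3 lies lower.

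Because the MiT-TFE factors bind E-boxes, promoter windows from RefSeq (GRCh38.p14, 250 bases before to 50 after an annotated start) were searched on both strands for the E-box CACGTG and for its CLEAR-type extension TCACGTGA, which contains it. Of the 38 genes, 26 had a window. A gene was counted where any of its windows held the letters. CACGTG was present in 13 of 26 (50%), beside 11.1% of the tested genes with a window and 8.77% of all genes with a window. TCACGTGA was present in 5 of 26 (19.2%), beside 1.75% of the tested genes and 1.18% of all genes with a window. These 5 were CTSA, PLBD2, LAMP1, MCOLN1 and IGF2R. By call, the E-box was in 4 of the 12 genes that rose and had a window (CTSD, NEU1, PLBD2 and CD63). It was also in 9 of the 13 uncalled genes with a window. CD63 counts through 1 of its 8 windows. CTSB, LGMN, HEXA, SGSH, ASAH1, PSAP and LAMP2 rose but had no window, so the shares by call leave out several of the largest rises. The E-box was not in the windows of CTSV, CD68, TFEB or TFE3. A match describes these letters only, and binding was not measured here. The share over the 26 genes is a property of the list and not a response to NCT-503.

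No difference between the shares given above was tested. The 7 stretches below were chosen because they hold the motif and show where it lies, first in 3 genes that rose and then in the 4 uncalled genes with TCACGTGA. Each is 61 bases upstream of the start, 5′ to 3′ on the gene's strand, with 1 copy of TCACGTGA, or of the 7 letters of it that are present, in capitals.
CTSD, chr11:1763941-1764001, minus strand: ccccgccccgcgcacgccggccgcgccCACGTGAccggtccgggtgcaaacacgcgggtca
NEU1, chr6:31862915-31862975, minus strand: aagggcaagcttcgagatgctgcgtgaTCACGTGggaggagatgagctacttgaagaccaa
PLBD2, chr12:113358526-113358586, plus strand: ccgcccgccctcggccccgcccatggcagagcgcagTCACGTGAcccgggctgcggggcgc
CTSA, chr20:45891274-45891334, plus strand: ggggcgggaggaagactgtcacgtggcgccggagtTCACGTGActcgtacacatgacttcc
LAMP1, chr13:113297178-113297238, plus strand: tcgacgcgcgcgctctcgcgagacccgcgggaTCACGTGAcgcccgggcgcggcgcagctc
MCOLN1, chr19:7522563-7522623, plus strand: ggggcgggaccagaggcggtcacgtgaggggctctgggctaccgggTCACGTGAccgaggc
IGF2R, chr6:159969021-159969081, plus strand: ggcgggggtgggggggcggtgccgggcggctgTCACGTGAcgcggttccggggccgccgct
In PLBD2, LAMP1 and IGF2R the extension shown starts 25, 29 and 29 bases before the annotated start. MCOLN1 holds it at 42 and 15 bases before the start, the first copy in lower case above, and IGF2R also at 133 and 75. The CTSA stretch also holds TCACGTG, in lower case, at 43 bases before the start, and LAMP1 has further copies of TCACGTG at 193, 177, 160 and 143 bases, outside the stretch shown. Of these genes, CTSD and NEU1 rose by 0.68 and 0.88, while LAMP1, MCOLN1 and IGF2R changed by 0.19, 0.18 and 0.19 and were not called. For the ATF4-type letters TGATGNAA, 1 of 26 genes (M6PR) held a match, beside 3.20% of the tested genes.

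Cysteine proteases, which cut proteins in the acidic lumen, went both ways. Of 11 measured, CTSB, LGMN and CTSZ rose (27.3%), CTSK and CTSV fell (18.2%), and 6 were not called, with a median change of -0.11. Over all genes tested, 16.4% were called higher and 17.1% lower, so the share that fell is near that of all genes. CTSB, an abundant cathepsin with both endo- and exopeptidase activity, measured 5.89, 5.88 and 5.87 with DMSO and 6.65, 6.66 and 6.63 with NCT-503. It rose by 0.76 ± 0.07 (adjusted p = 0.000242), and the spread within each group was at most 0.02 (SD). LGMN, the asparagine-specific endopeptidase that processes other cathepsins, measured 7.90, 7.83 and 7.91 with DMSO and 8.46, 8.31 and 8.39 with NCT-503. It rose by 0.51 ± 0.08 (adjusted p = 0.00241), with every NCT-503 array above every DMSO array.

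CTSZ, a carboxypeptidase, rose by 0.42 ± 0.11 (adjusted p = 0.0255). Its call was lost without DMSO a (adjusted p = 0.0797), DMSO c (0.0768), and also without NCT-503 a (0.0730) or NCT-503 c (0.0721).

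CTSK, best known as the collagen-degrading protease of osteoclasts, measured 4.70, 4.58 and 4.75 with DMSO and 3.93, 3.44 and 3.39 with NCT-503. CTSV, a cathepsin L paralog with strong elastin-degrading activity, measured 7.00, 7.09 and 6.87 with DMSO and 5.99, 5.77 and 5.93 with NCT-503. Neither gene's groups overlapped, and all NCT-503 arrays were the lower ones. CTSK fell by 1.09 ± 0.15 (adjusted p = 0.00148) and CTSV by 1.09 ± 0.10 (adjusted p = 0.000246). CTSS neighbours CTSK on chromosome 1 with no protein-coding gene between them. It went from 2.63 ± 0.04 to 2.44 ± 0.08 and was not called (adjusted p = 0.101).

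CTSL, the paralog of CTSV, went from 6.86 ± 0.14 to 7.15 ± 0.24 with overlapping groups and was not called (adjusted p = 0.159), but passed without NCT-503 a (change 0.42, adjusted p = 0.0329). Within arrays, CTSL minus CTSV was -0.29, -0.22 and 0.13 with DMSO and 0.87, 1.54 and 1.33 with NCT-503. The changes of the 2 genes thus differed by 1.37 ± 0.24 (SE, n = 3 arrays each; exact two-sided permutation p = 0.1, the smallest that 3 against 3 arrays allow, and 0.125 adjusted over 5 paralog pairs). The remaining cysteine cathepsins, CTSC, CTSF, CTSH and CTSO, had changes from -0.15 to 0.32 and were not called. Their 95% intervals ran from -0.56 (CTSH) to 0.75 (CTSO).

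Of the 4 aspartic and serine proteases, CTSD rose (25%, beside 16.4% of all genes tested) and the other 3 were not called, with a median change of 0.25. CTSD, the main aspartic protease of the lysosome, measured 8.43, 8.42 and 8.29 with DMSO and 9.03, 9.09 and 9.07 with NCT-503. The lowest NCT-503 value was 0.60 above the highest DMSO value. CTSD rose by 0.68 ± 0.08, or 1.60-fold (adjusted p = 0.000623). TPP1, a tripeptidyl peptidase mutated in a childhood neuronal ceroid lipofuscinosis, changed by 0.25 (95% interval 0.04 to 0.46) and was not called (adjusted p = 0.0689), while it passed with arrays centred on the median (0.0349). DPP7, a dipeptidyl peptidase, changed by 0.25 (adjusted p = 0.0900) and passed without NCT-503 c (change 0.33, adjusted p = 0.0448). CTSA, the carboxypeptidase that stabilises NEU1 and beta-galactosidase, changed by 0.15 (adjusted p = 0.255). CTSA overlaps PLTP in the reference table, and PLTP rose by 0.48. Probe positions are not given here.

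Glycosidases and sulfatases remove sugars and sulfate groups from glycans and glycolipids. Of 5 measured, NEU1, SGSH and HEXA rose (60%, beside 16.4% of all genes tested) and ARSA and ARSB were not called, with a median change of 0.42. NEU1, the lysosomal sialidase, measured 5.81, 5.96 and 5.93 with DMSO and 7.07, 6.68 and 6.58 with NCT-503. All NCT-503 arrays were higher, with the a sample highest. NEU1 rose by 0.88 ± 0.14 (adjusted p = 0.00246). HEXA, the alpha subunit of the hexosaminidase lost in Tay-Sachs disease, measured 6.52, 6.81 and 6.72 with DMSO and 7.31, 6.95 and 7.06 with NCT-503. The groups did not overlap, with a gap of 0.14. HEXA rose by 0.42 ± 0.12 (adjusted p = 0.0340), and its call was lost without DMSO a (adjusted p = 0.104), DMSO c (0.0726), and also without NCT-503 a (0.0847) or NCT-503 c (0.0668).

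SGSH, the heparan sulfatase of Sanfilippo syndrome type A, rose by 0.46 ± 0.09 (adjusted p = 0.00634). ARSA, which removes sulfate from sulfatide, went from 4.01 ± 0.37 to 4.38 ± 0.20 with overlapping groups and was not called (adjusted p = 0.193), though it passed without DMSO b (change 0.55, adjusted p = 0.0464). ARSB, which acts on dermatan and chondroitin sulfate, went from 6.10 ± 0.09 to 5.95 ± 0.10 (adjusted p = 0.217).

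All 6 measured lipid hydrolases and lipid-binding activators rose, beside 16.4% of all genes tested. In each of them every NCT-503 array lay above every DMSO array, as in 25.4% of all genes. Their changes ran from 0.28 to 0.66, with a median of 0.32. PSAP, the precursor of the 4 saposins that lift sphingolipids out of membranes for their hydrolases, measured 10.30, 10.15 and 10.20 with DMSO and 10.96, 10.92 and 10.75 with NCT-503. It rose 1.58-fold (0.66 ± 0.09, adjusted p = 0.00136). GM2A, which presents ganglioside GM2 to hexosaminidase A, rose by 0.49 ± 0.09 (adjusted p = 0.00588), and PPT1, which removes fatty acids from proteins, by 0.34 ± 0.07 (adjusted p = 0.0102). The smaller rises were those of PLBD2, a phospholipase B-like protein (0.30 ± 0.08, adjusted p = 0.0265), ASAH1, acid ceramidase (0.29 ± 0.07, adjusted p = 0.0220), and GALC, the galactosylceramidase lost in Krabbe disease (0.28 ± 0.08, adjusted p = 0.0256).

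These last 3 calls lay near the threshold and were lost when any of several arrays was left out. GALC was not called without DMSO a (adjusted p = 0.0604), without DMSO b (0.0681), without DMSO c (0.0801), without NCT-503 a (0.0724) or without NCT-503 c (0.0549). ASAH1 was not called without DMSO a (0.0613), DMSO b (0.0598), DMSO c (0.0679) or NCT-503 c (0.0524), and PLBD2 without DMSO b (0.0740), without DMSO c (0.0888), without NCT-503 a (0.0758) or without NCT-503 b (0.0695). Their changes stayed between 0.24 and 0.37 in all settings tried.

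Of the 7 membrane proteins, CD68, LAMP2, TMEM192 and CD63 rose (57.1%, beside 16.4% of all genes tested). LAMP1, LAMP3 and MCOLN1 were not called, and the median change was 0.49. CD68 measured 6.12, 6.35 and 6.20 with DMSO and 8.56, 8.51 and 8.36 with NCT-503. The lowest NCT-503 array exceeded the highest DMSO array by 2.01. CD68 rose by 2.25 ± 0.10 (adjusted p = 1.53e-05), which ranked 15 among the rises of all 14779 genes. Of the genes beside it in the reference table, MPDU1 (-0.14) and the SENP3-EIF4A1 readthrough (0.12) were not called. The antisense gene MPDU1-AS1 overlaps CD68 there and has no value here, so signal from it could not be told apart from that of CD68.

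CD68 is widely used as a macrophage marker. Of 15 other macrophage markers listed, 7 were measured and none was called higher or lower. Their mean log2 level was 3.27 to 3.39 on the DMSO arrays and 3.47 to 3.61 on the NCT-503 arrays, so these ranges did not overlap. The change was above 0 in 6 of the 7, namely MSR1 (0.42), TYROBP (0.32), CD163 (0.30), SPI1 (0.15), CSF1R (0.13) and LYZ (0.09), and below 0 in CD14 (-0.09). In MSR1, a scavenger receptor, all NCT-503 arrays lay above all DMSO arrays (adjusted p = 0.0773), and in the other 6 the groups overlapped. Of 13 noradrenergic markers of neuroblastoma, 10 were measured, at mean levels of 8.88 to 8.96 with DMSO and 8.66 to 8.77 with NCT-503, among them DBH at 10.04 and 10.41. PHOX2A (0.75), GATA3 (0.37) and DBH (0.37) rose, and TFAP2B (-1.44), CHGA (-1.23), HAND2 (-0.30) and ISL1 (-0.29) fell. That is 30% of the 10 higher and 40% lower, beside 16.4% and 17.1% of all genes tested. Of 5 measured fibroblast and Schwann markers, DCN fell (-0.47), or 20%, and none rose. The part of these shifts in the lysosomal results was not tested.

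LAMP2, which also serves chaperone-mediated autophagy, measured 7.94, 8.00 and 7.97 with DMSO and 8.65, 8.70 and 8.75 with NCT-503. LAMP1, the other major lysosomal membrane glycoprotein, measured 7.70, 7.77 and 7.76 with DMSO and 8.07, 7.97 and 7.76 with NCT-503. The LAMP2 groups were 0.65 apart, whereas the LAMP1 groups overlapped through NCT-503 c. LAMP2 rose by 0.73 ± 0.07 (adjusted p = 0.000367). LAMP1 changed by 0.19 ± 0.10 (95% interval -0.03 to 0.41, adjusted p = 0.171), and passed without NCT-503 c (change 0.27, adjusted p = 0.0476). Within arrays, LAMP2 minus LAMP1 was 0.24, 0.23 and 0.21 with DMSO and 0.59, 0.73 and 0.99 with NCT-503. The changes differed by 0.54 ± 0.12 (SE, n = 3; exact two-sided permutation p = 0.1, 0.125 adjusted over the 5 pairs).

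TMEM192, a membrane protein used to tag intact lysosomes, measured 7.50, 7.70 and 7.55 with DMSO and 8.20, 8.08 and 8.00 with NCT-503. It rose by 0.51 ± 0.09 (adjusted p = 0.00488), with no overlap of groups. CD63, a tetraspanin of late endosomes and exosomes, rose by 0.49 ± 0.08 (adjusted p = 0.00356). MCOLN1, the lysosomal calcium channel that activates TFEB through calcineurin, went from 6.98 ± 0.05 to 7.15 ± 0.08 and was not called (adjusted p = 0.123). LAMP3, a LAMP of dendritic cells, went from 2.91 ± 0.11 to 3.09 ± 0.24 (adjusted p = 0.343).

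**Figure D3:**
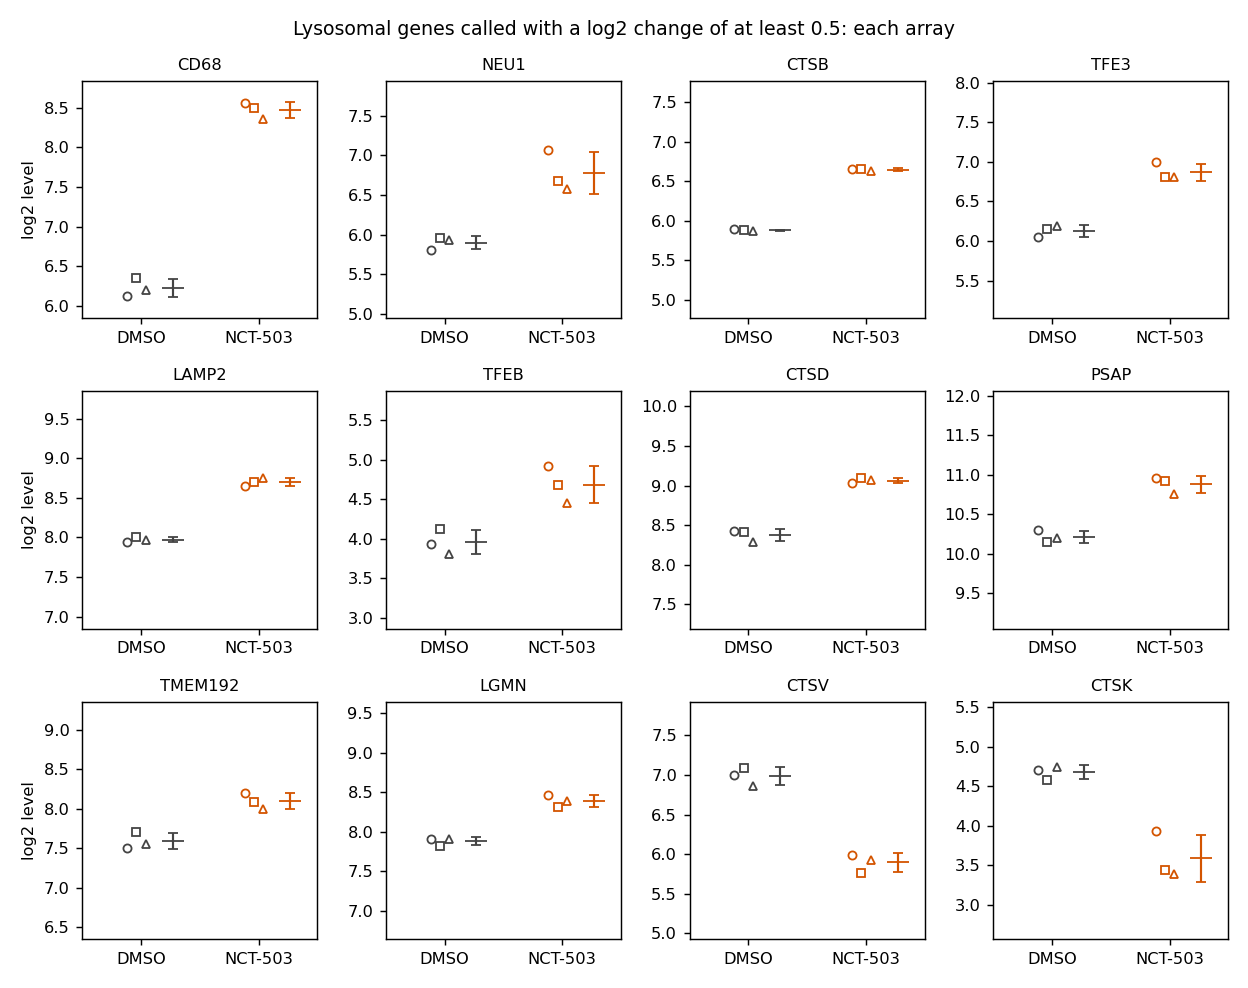
Log2 level (y axis, each panel spanning 3 log2 units) on each array for the 12 lysosomal genes called with a log2 change of at least 0.5. Circles, squares and triangles are the samples labelled a, b and c, and bars are mean ± SD (n = 3). The 10 that rose and the 2 that fell (CTSV and CTSK) show no overlap between groups, and CD68 has the widest separation.

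The 2 mannose 6-phosphate receptors, which carry new hydrolases from the Golgi, were not called. IGF2R, the cation-independent receptor, measured 7.92, 7.87 and 7.91 with DMSO and 8.18, 8.14 and 7.94 with NCT-503. M6PR, the cation-dependent receptor, measured 7.98, 7.92 and 7.99 with DMSO and 7.84, 7.84 and 7.79 with NCT-503. Groups did not overlap in either gene, and the shifts ran in opposite directions. IGF2R changed by 0.19 (95% interval -0.02 to 0.39, adjusted p = 0.142) and passed without NCT-503 c (change 0.26, adjusted p = 0.0475). M6PR changed by -0.14 (95% interval -0.31 to 0.02, adjusted p = 0.163). The changes differed by 0.33 ± 0.06 (SE, n = 3; exact two-sided permutation p = 0.1, 0.125 adjusted over 5 pairs). M6PR overlaps PHC1 in the reference table, and PHC1 rose by 0.61.

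Of the other paralog pairs, CTSS and CTSK changes differed by 0.90 ± 0.23 (SE, n = 3; exact permutation p = 0.1, 0.125 adjusted), and those of TFE3 and TFEB by 0.02 ± 0.13 (exact permutation p = 0.8). The pairs were chosen after their values were seen.

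Other genes of the compartment came from lists separate from the 40, and their counts stand beside 16.4% higher and 17.1% lower over all genes tested. Both all-gene shares were larger when only the 50% of genes above the 50th percentile of mean level were tested (2153 higher and 2377 lower). The lists were not matched to all genes by level, so their shares are not read as an excess over 16.4% or 17.1%. Of 18 measured further lysosomal hydrolases, 6 rose (33.3%) and 2 fell (11.1%), with a median change of 0.09. IDS, the iduronate sulfatase of Hunter syndrome, rose by 0.75 ± 0.08 (adjusted p = 0.000514), PRCP, a prolyl carboxypeptidase, by 0.70 ± 0.07, and SIAE, a sialic acid esterase, by 0.47 ± 0.08. HGSNAT, the acetyltransferase of lysosomal heparan sulfate breakdown, fell by 0.61 ± 0.07. Among 22 further lysosomal membrane proteins, 7 rose (31.8%) and 6 fell (27.3%), with a median of 0.08. SPNS1, a lysosomal lysophospholipid transporter, rose by 0.95 ± 0.09 and LMBRD1, which takes part in cobalamin export, by 0.94 ± 0.10. DRAM2 rose by 0.78 ± 0.08, and MFSD8, mutated in a neuronal ceroid lipofuscinosis, fell by 0.88 ± 0.08.

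In the machinery that sorts cargo to lysosomes and fuses membranes there, 6 of 19 rose (31.6%) and 3 fell (15.8%), with a median of 0.22. The SNAREs STX7, STX8 and VAMP7 rose by 0.75 ± 0.11, 0.63 ± 0.09 and 0.63 ± 0.07, and VPS11, a core subunit of the HOPS tethering complex, by 0.64 ± 0.09. Of the other HOPS core subunits, VPS18 fell by 0.59 ± 0.11 and VPS33A by 0.32 ± 0.08. VPS39 (0.06) and VPS41 (-0.08) were not called, and VPS16 had no named row. The remaining called genes of this list were VPS29, which fell by 0.54 ± 0.07, and VPS35 and VTI1B, which rose by 0.30 ± 0.07 and 0.30 ± 0.08. Of 9 cathepsin inhibitors, 2 rose (22.2%), the cystatins CSTB (0.38 ± 0.08) and CST3 (0.37 ± 0.07), and none fell. No listed subunit of the V-ATPase, the proton pump that acidifies the lysosome, had a named row, so acidification genes were not analysed here.

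**Figure D4:**
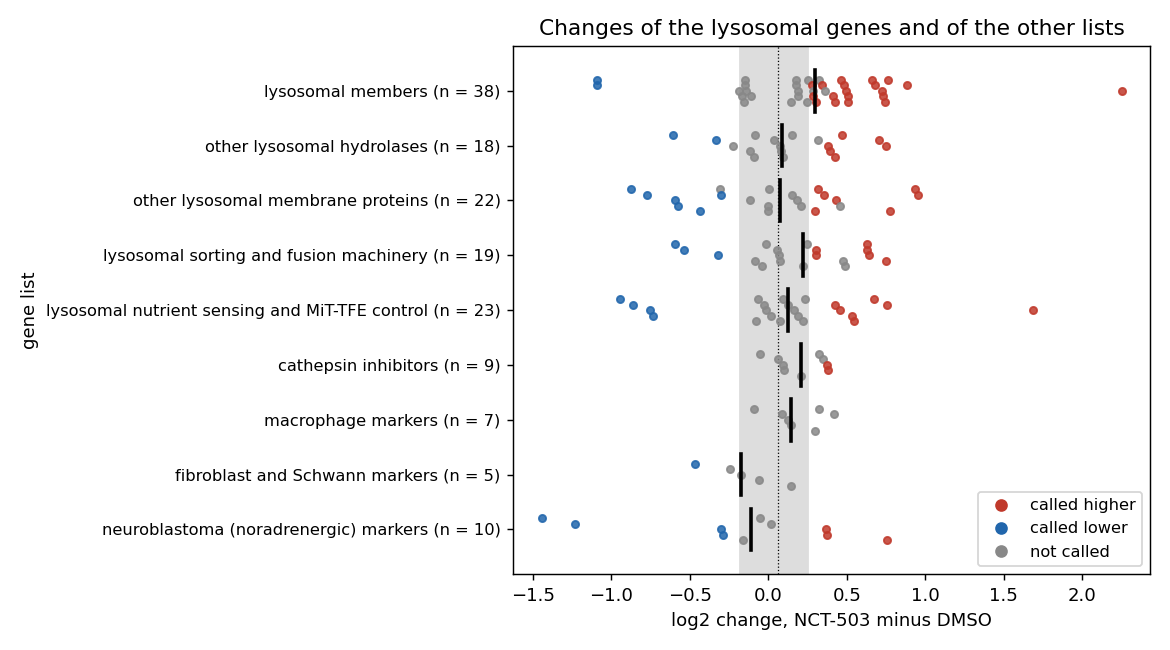
Log2 change, NCT-503 minus DMSO (x axis), of each gene in the lysosomal list and in 8 other lists (y axis), coloured by call. Black ticks are list medians, the grey band spans the lower to upper quartile of all genes tested and the dotted line is their median at 0.06. The median of the 38 lysosomal genes is 0.30, and those of the other lists range from -0.18 to 0.22. Genes and lists were chosen with earlier results of these data known, so the medians are descriptions and were not compared by a test.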

How the data were processed

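RNA from 6 BE(2)-C samples was hybridised to Affymetrix arrays. The deposited values are taken as log2 values. Per the submitters' processing notes the authors used Partek; the sources used here do not give the background correction, summarisation or normalization, so no signal could be set against background. Of 31135 rows, 15098 had 1 gene symbol, and the other 16037 had several or none listed here and were not named. Per gene, the row with the highest mean was used (14779 genes). The array medians over all rows were 4.30 to 4.33, and the upper quartiles were 6.16 to 6.19 with DMSO and 6.03 to 6.08 with NCT-503. The number of arrays limits the precision, with a median SE of 0.105 over all genes.

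The test was limma's moderated test (version 3.58.1, R 4.3.3, lmFit and eBayes, both groups in 1 fit across all genes, two-sided, Benjamini-Hochberg over 14779 genes, calls at 0.05), after a test on simulated data. Members and lists were chosen with earlier results of these data known, so lists are described by counts and medians only. All members with a row are named. Those called with a change of at least 0.5, and TFEB, TFE3, LAMP1, CTSD and HEXA, are given by array, and up to 4 called genes are named per other list; the others, such as VPS18, VPS33A, RRAGC and the markers, and the paralog pairs were chosen after values were seen. Samples with the same letter were not treated as pairs, since correlations of their deviations were 0.003 to 0.037. Promoter windows are RefSeq's. No member had a second row. In RefSeq's gene table, 17 members overlap another gene, 6 of them a protein-coding one (such as PLTP or PHC1), whose signal may not be separable.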

Additional observations from a re-analysis of the deposited data

How the results depend on the processing

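Across 18 alternatives (other variance priors, array weights, scalings, filters, row rules, thresholds and each array left out), 15 of 21 called lysosomal genes kept their call and direction in every setting in which they were tested, 6 lost it in 1 or more, and 9 uncalled genes gained one. No called gene reversed. The 6 were CTSZ, HEXA, GALC, ASAH1, PLBD2 and, only at an adjusted p under 0.01, PPT1. CTSS was called lower after quantile normalization and M6PR without moderation. The median change was 0.34, 0.36 and 0.32 with arrays centred on the median, centred on the 75th percentile or quantile normalized, and 0.28 to 0.34 without single arrays. At an adjusted p under 0.01, 13 members were higher and 2 lower, over all genes 1226 were higher and 1682 lower, and 5 other hydrolases were called. Above the 50th percentile of mean level 29 members were left, and 1 was called lower, because CTSK was not tested there. With the replicate block, 15 members were higher and 2 lower, against 2108 and 2327 over all genes. Without single arrays the members called higher numbered 14 to 18. Centring on the median gave 56.3% of calls higher over all genes. No setting moved the median of all genes by over 0.1.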

Other observations

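After the rise of MITF was seen, 15 genes known as MiT-TFE or MITF targets or as parts of the melanosome, a lysosome-related organelle, were looked up, and 9 had a named row. SQSTM1, the autophagy receptor p62, went from 6.41 ± 0.05 to 7.12 ± 0.12 (mean ± SD, n = 3 each), a rise of 0.72 ± 0.09 (SE, limma adjusted p = 0.000931). UVRAG, which acts in autophagosome and endosome maturation, rose by 0.43 ± 0.08. TYR, the pigment enzyme tyrosinase, rose by 0.44 ± 0.09 at a low level, from 2.37 ± 0.07 to 2.81 ± 0.12. The other 6, GPNMB (0.18), PMEL (0.33), MLANA (-0.12), TYRP1 (0.19), OCA2 (-0.12) and GPR143 (0.41), were not called. CTSK, which MITF is known to drive in osteoclasts, fell by 1.09 while MITF rose by 1.69, and a link was not tested. These genes were chosen after values were seen and carry no test as a list.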
